A study of Homo sapiens with 28 samples.

Results

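The inflammatory cytokines IL32, IL18, TNF and IL1B and the chemokines CXCL8, CCL2, CCL3 and CCL4 were followed through a study of 7 established acute myeloid leukaemia (AML) cell lines. Every probe set of the array whose annotation named 1 of these 8 genes was taken, which gave 10 of the 27306 probe sets. Of these, 9 named a single gene and covered 7 of the 8 genes, among the 11676 genes that had a probe set of their own. CXCL8 and IL1B each had 2 such probe sets, and the brighter one stood for the gene. CCL3 was named only on a probe set shared with its near-identical copies CCL3L1 and CCL3L3, so its signal cannot be given to CCL3 alone and is described separately.

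The lines were THP1, NOMO1, SHI1, MOLM13, SKM1, SKNO1 and GDM1. Each was plated 24 hours ahead, then grown for 96 hours with 1 µM GSK3484862, an inhibitor of DNMT1, the enzyme that copies DNA methylation onto the new strand after replication, or with 0.1% DMSO as vehicle. Each of the 14 groups held biological duplicates, numbered replicate 1 and replicate 2, on Affymetrix Human Genome U133 Plus 2.0 arrays. Each line stands for 1 leukaemia adapted to culture, and no genotype was given in the labels. Values are log2 signals, so a difference of 1 is a 2-fold difference. The lowest signal on any array was 2.13, a floor at which values have no order and from which the size of a rise is limited, and array medians ran from 8.33 to 8.51.

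Changes are GSK3484862 minus DMSO on the log2 scale with the standard error of a limma fit over all 28 arrays. A gene was called when its Benjamini-Hochberg adjusted p, taken over the whole set of 11676 genes, was under 0.05. Of the general leukocyte and myeloid genes, 0 of the 13 measured were at the floor in any DMSO group. PTPRC (CD45) lay between 11.23 and 12.96 and the myeloid transcription factor gene SPI1 between 8.89 and 10.15. Not all were well above the floor, since the lowest DMSO mean was 2.26 for ANPEP and 4.65 for FCER1G. DNMT1 mRNA, which encodes the inhibited enzyme, fell by 0.09 on average (SE 0.03, limma adjusted p = 0.007). The change was -0.48 in GDM1 and ran from -0.14 in SHI1 to 0.09 in NOMO1 in the other lines. The duplicates of treated SKM1 stood furthest apart, with an SD of a single array of 0.305. Those of DMSO-treated SKM1 came next with 0.289, against 0.161 in the closest pair of all groups. Between the treated SKM1 duplicates, 4 of the 7 cytokine genes differed by more than 1. The main changes of the cytokine genes that rest on SKM1 are therefore also given without 1 or more of its arrays. Second probe sets, correlations and the other gene lists are given with all arrays only.

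These genes encode secreted proteins by which myeloid cells start and spread inflammation. TNF and IL1B act on nearby cells through receptors that switch on NF-kappaB, and NF-kappaB in turn drives transcription of many cytokine genes. IL18 and IL1B belong to the interleukin-1 family and are made as inactive precursors that caspase-1 cuts inside inflammasomes. CXCL8 draws neutrophils, CCL2 draws monocytes, and CCL3 and CCL4 draw monocytes and T cells. IL32 is a cytokine of T cells, natural killer cells and some tumour and myeloid cells, and it can induce TNF and CXCL8.

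The promoters of the 4 members below are shown because DNMT1 acts on CG pairs and these members differ in how many such pairs lie before their start. Each sequence is the 250 bases upstream of the first RefSeq start site (GRCh38.p14), written 5′ to 3′ on the strand of the gene, with every CG in capitals.
IL32: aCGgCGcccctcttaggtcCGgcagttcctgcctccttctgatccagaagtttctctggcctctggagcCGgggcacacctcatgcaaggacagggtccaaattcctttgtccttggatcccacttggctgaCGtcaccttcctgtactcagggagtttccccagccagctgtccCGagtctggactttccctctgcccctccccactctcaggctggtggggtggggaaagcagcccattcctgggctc
TNF: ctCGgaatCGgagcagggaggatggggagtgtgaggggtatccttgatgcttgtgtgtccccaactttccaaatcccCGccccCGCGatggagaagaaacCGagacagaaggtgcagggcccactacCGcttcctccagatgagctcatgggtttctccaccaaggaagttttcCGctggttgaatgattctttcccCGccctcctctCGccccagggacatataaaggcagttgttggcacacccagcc
CXCL8: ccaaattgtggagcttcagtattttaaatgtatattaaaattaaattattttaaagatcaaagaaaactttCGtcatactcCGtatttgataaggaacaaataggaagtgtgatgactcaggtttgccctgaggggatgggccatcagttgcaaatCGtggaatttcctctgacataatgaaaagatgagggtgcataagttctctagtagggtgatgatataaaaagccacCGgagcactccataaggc
IL1B: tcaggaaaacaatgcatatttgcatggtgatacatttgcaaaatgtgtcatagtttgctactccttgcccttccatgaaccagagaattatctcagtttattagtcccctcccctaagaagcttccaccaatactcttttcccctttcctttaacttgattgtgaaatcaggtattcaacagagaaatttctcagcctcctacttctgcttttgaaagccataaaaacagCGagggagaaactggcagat

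The windows lie at chr16:3065153-3065402 on the plus strand for IL32, chr6:31575315-31575564 on the plus strand for TNF, chr4:73740319-73740568 on the plus strand for CXCL8 and chr2:112836780-112837029 on the minus strand for IL1B. TNF held 10 CG pairs, IL32 6, CXCL8 4 and IL1B 1, against a median of 11 over 35116 RefSeq windows of the same length, with quartiles of 3 and 23. All 4 therefore lay below that median, and IL1B lay below the lower quartile. 3 short motifs were searched on both strands. The NF-kappaB motif GGANNTTCC matched in IL32 at 98 and 68 bases and in CXCL8 at 91 bases upstream of the start, and it was present in 3.84% of all windows. The AP-1 motif TGANTCA matched in CXCL8 at 137 bases upstream and was present in 6.57% of windows. A TATAAA box matched in TNF at 29 bases and in CXCL8 at 31 bases upstream and was present in 10.7% of windows. None of these letters occurred in the IL1B window. A match is a run of letters and not a measured binding site, and methylation was not measured on these arrays. Windows were matched for 5 of the 8 members (IL32, TNF, CXCL8, IL1B and CCL3), and IL18, CCL2 and CCL4 are given by name only.

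With GSK3484862, all 7 genes with a probe set of their own rose on average over the 7 lines, and none was called down in any line. The averages ran from 1.66 for IL32 through 1.26 for IL18, 1.08 for TNF, 0.90 for CXCL8, 0.78 for IL1B and 0.70 for CCL2 to 0.47 for CCL4. Of all 11676 genes, 23.2% were called up on average, so that a call alone was common. The median change of the 7 genes was 0.90 against -0.02 over all genes. The genes were chosen with earlier results of these data known, so comparisons with all genes here do not test them as a set. Of the 49 changes of a gene in a line, 41 were above 0, 5 were exactly 0 because all arrays sat at the floor or at one low value, and 3 were below 0. Of the changes just above 0, 3 turned below it with the scaling, TNF in THP1 to -0.06 and CCL4 in MOLM13 to -0.01 with quantile normalization, and CXCL8 in SHI1 to -0.03 with centring on the array median. Of the same 49 changes, 14 were called up and 0 down, where 8.02% of all changes of a gene in a line were called up. In bulk RNA a higher signal from more expressing cells and one from more RNA per cell cannot be told apart.

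The lines differed in how many of the genes rose. SKM1 had 7 of 7 called up, with a median change of 2.31, where 14.1% of all genes were called up in SKM1. SKNO1 had 3 of 7 (IL18, TNF and CXCL8), where only 2.96% of all genes were called up. MOLM13 had 2 of 7 (IL32 and CXCL8) against 13.7% of all genes, THP1 had 1 (CXCL8) against 5.4%, and SHI1 had 1 (IL32) against 2.52%. GDM1 and NOMO1 had 0 of 7 called, against 13.3% and 4.21% of all genes called up. With only 7 genes, 0 calls in GDM1 and in NOMO1 lay near these shares. In GDM1 the DMSO means of IL32 (2.13), CCL4 (2.16) and CXCL8 (2.20) were also at the floor. At an unadjusted p under 0.05, GDM1 had 1 of the 7 (TNF) and NOMO1 had 0.

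**Figure D1:**
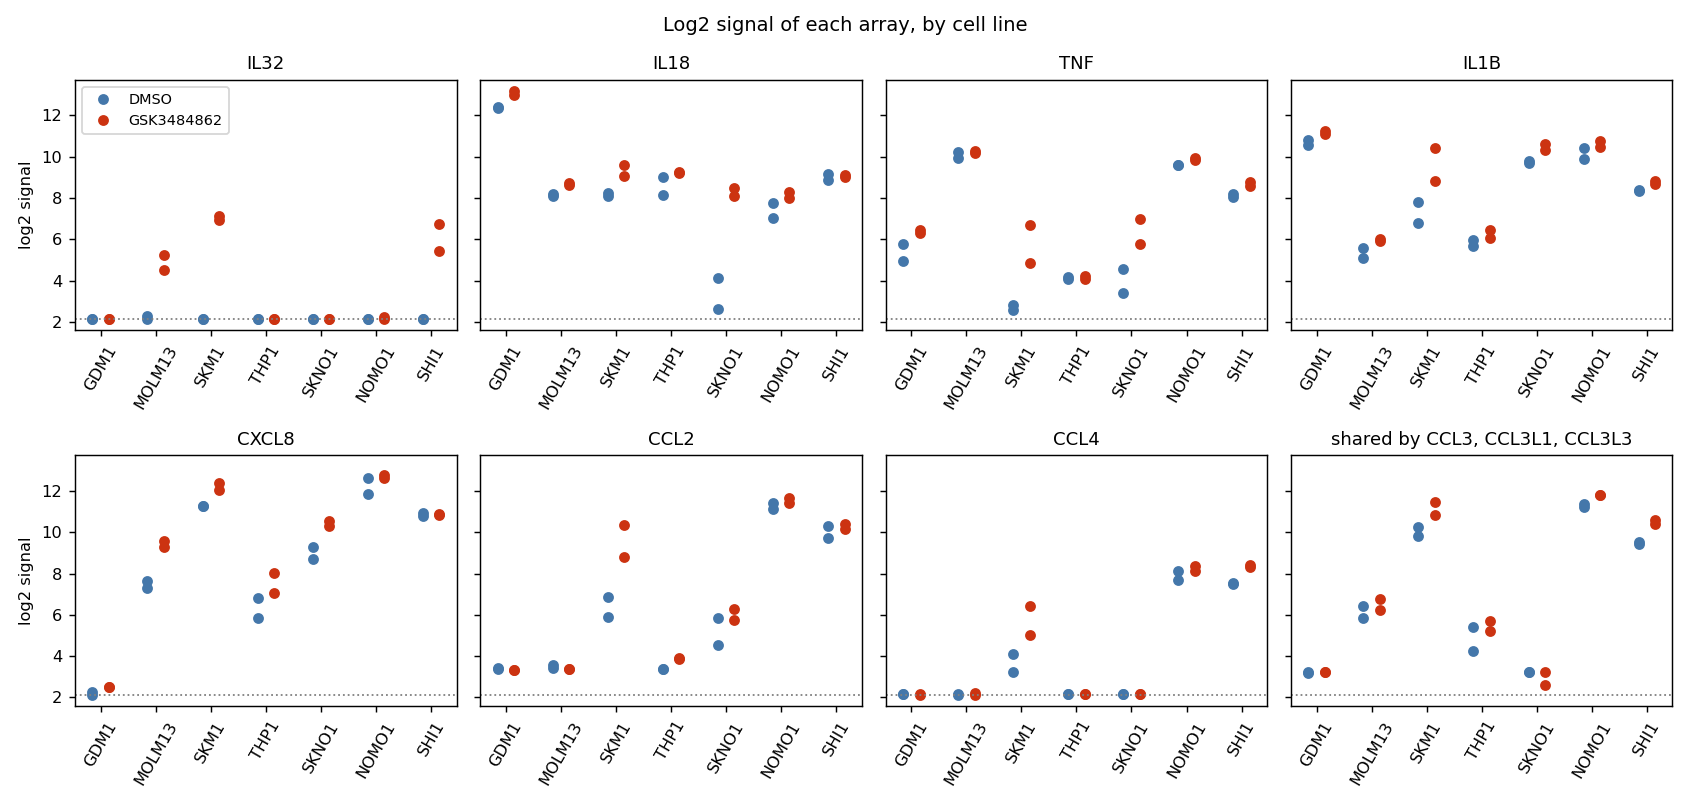
Log2 signal of every array (vertical axis) for the 7 genes and for the probe set shared by CCL3, CCL3L1 and CCL3L3, by cell line (horizontal axis), with DMSO arrays in blue and GSK3484862 arrays in red, and the dotted line at the floor of 2.13. IL32 left the floor in treated MOLM13, SKM1 and SHI1, while the other genes started from levels that differed widely between lines.

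IL32 lay at or next to the floor in all 7 lines under DMSO, and rose in 3 of them. All 14 DMSO arrays lay at the floor of 2.13, apart from MOLM13 replicate 2 at 2.26. Treated SKM1 arrays reached 6.96 and 7.13, treated SHI1 arrays 6.76 and 5.43, and treated MOLM13 arrays 4.50 and 5.26, with no overlap with DMSO in these 3 lines. In GDM1, THP1 and SKNO1 both treated arrays stayed at 2.13, and in NOMO1 they read 2.13 and 2.24. The rise was 4.91 ± 0.27 in SKM1 (30.1-fold, limma adjusted p = 1.55e-09), 3.96 ± 0.27 in SHI1 (15.6-fold, 1.27e-07) and 2.69 ± 0.27 in MOLM13 (6.44-fold, 1.92e-06). With any 1 SKM1 array left out, the SKM1 rise was 4.82 to 5.00 and stayed called. These sizes start from the floor and are lower limits of the rise.

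The change in IL32 differed between lines by the limma F-test (adjusted p = 5.16e-08, a test that called 37.5% of all genes). Against the mean of the other 6 lines, SKM1 rose by 3.79 more (adjusted p = 2.12e-07), SHI1 by 2.68 more (4.8e-05) and MOLM13 by 1.20 more (0.0129), in tests that called 12.1%, 4.33% and 11.3% of all genes. The differences were -1.94 in GDM1, THP1 and SKNO1 and -1.87 in NOMO1, all called, in tests that called 23.1%, 3.73%, 7.49% and 5.86% of all genes. With 20 of 28 arrays at the floor, the spread between duplicates of IL32 was 0 in most groups. The pooled error averages these groups with the few that have signal. Treated duplicates differed by 1.33 in SHI1, 0.75 in MOLM13 and 0.17 in SKM1. For SHI1 and MOLM13 the pooled error and the p-values are therefore smaller than their own spread would give. The SHI1 call was lost when that line was fitted on its own 4 arrays. The average of 1.66 ± 0.10 is a mean over 3 lines that rose and 4 that did not, and it was 1.12 without SKM1 and 1.28 without SHI1. DMSO levels gave no order of lines for IL32 (limma F-test adjusted p = 1), whereas the same test passed for the 6 other genes (adjusted p of 5.61e-10 or lower) and for 97% of all genes.

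IL18 lay well above the floor before treatment in 6 lines, and its largest change was in SKNO1, the line where it was lowest. The DMSO arrays read 12.40 and 12.36 in GDM1, 9.16 and 8.88 in SHI1, 8.15 and 9.03 in THP1, and 8.11 and 8.23 in SKM1. They read 8.19 and 8.08 in MOLM13, 7.78 and 7.05 in NOMO1, and 2.61 and 4.11 in SKNO1, near the floor, so that the size of the SKNO1 rise is limited by it. GDM1 stood 3.36 above SHI1 (limma adjusted p = 2.7e-07) and NOMO1 4.05 above SKNO1 (2.26e-08), where 66.9% of all comparisons of a gene between 2 lines were called, and no step between neighbours among the 5 lines from SHI1 to NOMO1 was called (adjusted p from 0.0936 to 0.966).

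With GSK3484862, IL18 in SKNO1 reached 8.10 and 8.46, a rise of 4.92 ± 0.36 (30.3-fold, limma adjusted p = 1.36e-07), which brought its mean of 8.28 into the range of the DMSO means of the 5 middle lines. In SKM1 the treated arrays read 9.07 and 9.60, a rise of 1.17 ± 0.36 (adjusted p = 0.0231). The other changes were 0.73 in NOMO1, 0.71 in GDM1, 0.65 in THP1, 0.55 in MOLM13 and 0.06 in SHI1, and none of these was called. Both treated arrays lay above both DMSO arrays in 6 of 7 lines, all except SHI1, which was so for 4.41% of all genes (6 or more lines). SKNO1 rose by 4.28 more than the mean of the other 6 lines (limma adjusted p = 3.1e-06, with 7.49% of all genes called). The average rise of 1.26 ± 0.14 (adjusted p = 1.3e-06) was 0.64 without SKNO1 (0.000143), and the F-test between lines (adjusted p = 2.74e-05) gave 0.246 without SKNO1. The SKM1 call rested on single arrays: the rise was 1.11 without DMSO replicate 1, 1.23 without DMSO replicate 2 and 0.90 without GSK3484862 replicate 2, with adjusted p of 0.0955, 0.0609 and 0.163.

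IL1B, the other member of the interleukin-1 family here, rose in SKM1 and lay slightly higher with treatment in every other line, without a call. DMSO arrays read 10.55 and 10.79 in GDM1, 10.43 and 9.89 in NOMO1, and 9.81 and 9.70 in SKNO1, with no called step among them. They read 8.39 and 8.34 in SHI1, 7.83 and 6.81 in SKM1, 5.95 and 5.70 in THP1, and 5.58 and 5.09 in MOLM13. THP1 and MOLM13 did not differ beyond their spread (difference 0.49 ± 0.38, limma adjusted p = 0.275), and the steps between were called.

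Treated SKM1 arrays of IL1B read 10.41 and 8.85, a rise of 2.31 ± 0.38 (4.97-fold, limma adjusted p = 0.000234). The 6 other changes ran from 0.40 in SHI1 to 0.70 in SKNO1, and none was called. Both treated arrays lay above both DMSO arrays in 7 of 7 lines, which held for 1.09% of all genes. The average rise was 0.78 ± 0.14 (adjusted p = 0.000226) and 0.52 without SKM1. SKM1 rose by 1.79 more than the mean of the others (adjusted p = 0.00812), while the F-test over all lines did not pass (adjusted p = 0.062). The second IL1B probe set, fitted among 22580 probe sets with 1 symbol, also separated treated from DMSO arrays in 7 of 7 lines. It rose by 1.04 ± 0.15 on average (adjusted p = 4.08e-05, with 19% of those probe sets called up), by 2.60 in SKM1 and by 1.65 in THP1 (adjusted p = 0.0163), where 10.6% and 3.88% of those probe sets were called up. The probe sets of IL1B thus differed on THP1, where the brighter one gave 0.44 and no call.

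TNF, the ligand of the receptors TNFRSF1A and TNFRSF1B, rose in SKM1 and SKNO1, which were among the 3 lines with the lowest DMSO signal. DMSO arrays read 10.22 and 9.95 in MOLM13, 9.58 and 9.62 in NOMO1, 8.18 and 8.06 in SHI1, and 5.76 and 4.95 in GDM1. They read 4.17 and 4.06 in THP1, 3.37 and 4.55 in SKNO1, and 2.55 and 2.79 in SKM1, the lowest line. MOLM13 and NOMO1 did not differ beyond their spread (0.48 ± 0.47, limma adjusted p = 0.395), nor did THP1 and SKNO1 (0.15 ± 0.47, 0.8), and the other steps were called.

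Treated TNF arrays read 6.69 and 4.85 in SKM1 and 5.79 and 6.97 in SKNO1, above DMSO in both lines. The rise was 3.10 ± 0.47 in SKM1 (8.56-fold, limma adjusted p = 0.000121) and 2.42 ± 0.47 in SKNO1 (5.36-fold, 0.00436). In GDM1 the treated arrays read 6.46 and 6.28, also above DMSO, but the change of 1.02 ± 0.47 was not called (adjusted p = 0.109). SHI1 changed by 0.57, NOMO1 by 0.29, MOLM13 by 0.15 and THP1 by 0.02, with no call. SKM1 rose by 2.35 more than the mean of the other lines (adjusted p = 0.00571), and SKNO1 by 1.56 more, which was not called (0.0717). The F-test between lines gave an adjusted p of 0.00592. The SKNO1 rise of TNF was 1.83 without DMSO replicate 1 (adjusted p = 0.0823) and 1.83 without GSK3484862 replicate 2 (0.0762), so either array decided its call. The average rise of 1.08 ± 0.18 (adjusted p = 8.32e-05) was 0.74 without SKM1 and 0.86 without SKNO1.

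CXCL8, the neutrophil chemokine also called interleukin-8, had the most lines with a call. DMSO arrays read 12.64 and 11.87 in NOMO1, 11.28 and 11.27 in SKM1, 10.93 and 10.78 in SHI1, and 8.73 and 9.30 in SKNO1. They read 7.63 and 7.29 in MOLM13, 6.83 and 5.86 in THP1, and 2.13 and 2.27 in GDM1, where the gene was at or near the floor. Of these steps only that from SKM1 to SHI1 (0.42 ± 0.32, limma adjusted p = 0.27) was within the spread.

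CXCL8 rose in MOLM13 to 9.59 and 9.32, a change of 1.99 ± 0.32 (3.98-fold, limma adjusted p = 0.000181). It rose by 1.42 ± 0.32 in SKNO1 (treated arrays 10.32 and 10.55, adjusted p = 0.0117), by 1.22 ± 0.32 in THP1 (8.05 and 7.08, 0.0175) and by 0.95 ± 0.32 in SKM1 (12.39 and 12.05, 0.0348). Called rises in 4 or more lines were seen for 2.5% of all genes. GDM1 (0.30), NOMO1 (0.43) and SHI1 (0.02) had no call. MOLM13 rose by 1.27 more than the mean of the other lines (adjusted p = 0.0226). The F-test between lines passed (adjusted p = 0.0194), but gave 0.0543 without GDM1, 0.127 without MOLM13 and 0.0747 without SHI1.

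Apart from MOLM13, the calls of CXCL8 in single lines depended on single arrays. In SKM1 the change was 0.95 without DMSO replicate 1, 0.94 without DMSO replicate 2, 0.78 without GSK3484862 replicate 1 and 1.12 without GSK3484862 replicate 2, with limma adjusted p of 0.103, 0.0996, 0.179 and 0.0519. In THP1 it was 0.73 without DMSO replicate 2 and 0.73 without GSK3484862 replicate 1 (adjusted p 0.22 and 0.226). In SKNO1 it was 1.14 without DMSO replicate 1 and 1.31 without GSK3484862 replicate 2 (0.149 and 0.0921). The second CXCL8 probe set was called up in MOLM13 (1.62), THP1 (1.66) and SKNO1 (1.53), where 10.3%, 3.88% and 2.02% of such probe sets were called up, and its change of 1.07 in SKM1 just missed the threshold (adjusted p = 0.0533). On average the probe sets gave 0.90 ± 0.12 and 0.91 ± 0.14 (adjusted p = 1.04e-05 and 7.55e-05).

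CCL2, which draws monocytes through the receptor CCR2, rose in SKM1. DMSO arrays read 11.15 and 11.44 in NOMO1, 10.30 and 9.74 in SHI1, 6.89 and 5.89 in SKM1, and 4.52 and 5.85 in SKNO1. MOLM13 (3.44 and 3.59), GDM1 (3.43 and 3.40) and THP1 (3.40 and 3.36) lay close to 3.35, the lowest value of this probe set on any array, and did not differ from each other as neighbours (limma adjusted p = 0.887 and 0.96). The steps above them were called.

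Treated SKM1 arrays of CCL2 read 10.34 and 8.80, a rise of 3.18 ± 0.43 (9.06-fold, limma adjusted p = 4.37e-05). The other changes ran from -0.11 in MOLM13 to 0.85 in SKNO1, and none was called. In MOLM13 and GDM1 both treated arrays lay just below both DMSO arrays, by changes of -0.11 and -0.07 at the bottom of the probe set's range. SKM1 rose by 2.90 more than the mean of the others (adjusted p = 0.00055). The average of 0.70 ± 0.16 (adjusted p = 0.00182) fell to 0.28 ± 0.12 without SKM1 and was then not called (0.0721), and the F-test between lines went from an adjusted p of 0.00464 to 0.367.

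CCL4 was at the floor in 4 lines and rose in SKM1. DMSO arrays read 8.12 and 7.67 in NOMO1, 7.54 and 7.49 in SHI1, and 3.25 and 4.10 in SKM1. In MOLM13, GDM1, THP1 and SKNO1 all 16 arrays of either treatment lay between 2.13 and 2.20. NOMO1 and SHI1 did not differ beyond their spread (0.38 ± 0.31, limma adjusted p = 0.303).

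Treated SKM1 arrays of CCL4 read 6.46 and 5.02, a rise of 2.06 ± 0.31 (4.17-fold, limma adjusted p = 0.000113). In SHI1 the treated arrays of 8.34 and 8.41 lay above DMSO, but the change of 0.85 ± 0.31 was not called (adjusted p = 0.178), and NOMO1 changed by 0.35. The F-test between lines passed (adjusted p = 0.00766), and SKM1 rose by 1.86 more than the mean of the others (0.00145). The average of 0.47 ± 0.12 (adjusted p = 0.00313) was 0.20 without SKM1, where it was still called (0.00116). That smaller average rests on SHI1 and NOMO1, neither of them called. In the lines at the floor the duplicates of CCL4 hardly differed, which lowers the pooled error and the p-values. The lower p-value without SKM1 therefore does not show a firmer rise. In SKM1 itself the treated duplicates differed by 1.44.

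The probe set shared by CCL3, CCL3L1 and CCL3L3 was examined in a fit over all 27306 probe sets. DMSO arrays read 11.39 and 11.24 in NOMO1, 10.25 and 9.85 in SKM1, 9.45 and 9.56 in SHI1, 5.85 and 6.46 in MOLM13, and 4.26 and 5.44 in THP1. GDM1 and SKNO1 arrays lay between 3.19 and 3.23 under DMSO. The CCL3 probe set rose by 1.13 ± 0.32 in SKM1 (treated arrays 11.50 and 10.85, limma adjusted p = 0.0205, with 9.69% of probe sets called up). It changed by 0.99 in SHI1, 0.63 in THP1, 0.50 in NOMO1, 0.37 in MOLM13, 0.02 in GDM1 and -0.32 in SKNO1, with no call. Its average was 0.47 ± 0.12 (adjusted p = 0.00484, with 18.4% called up) and 0.37 ± 0.13 without SKM1, where it was still called (0.0343). The call in SKM1 itself rested on single arrays: the change was 0.93 without DMSO replicate 2 and 0.80 without GSK3484862 replicate 1, with limma adjusted p of 0.13 and 0.192.

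**Figure D2:**
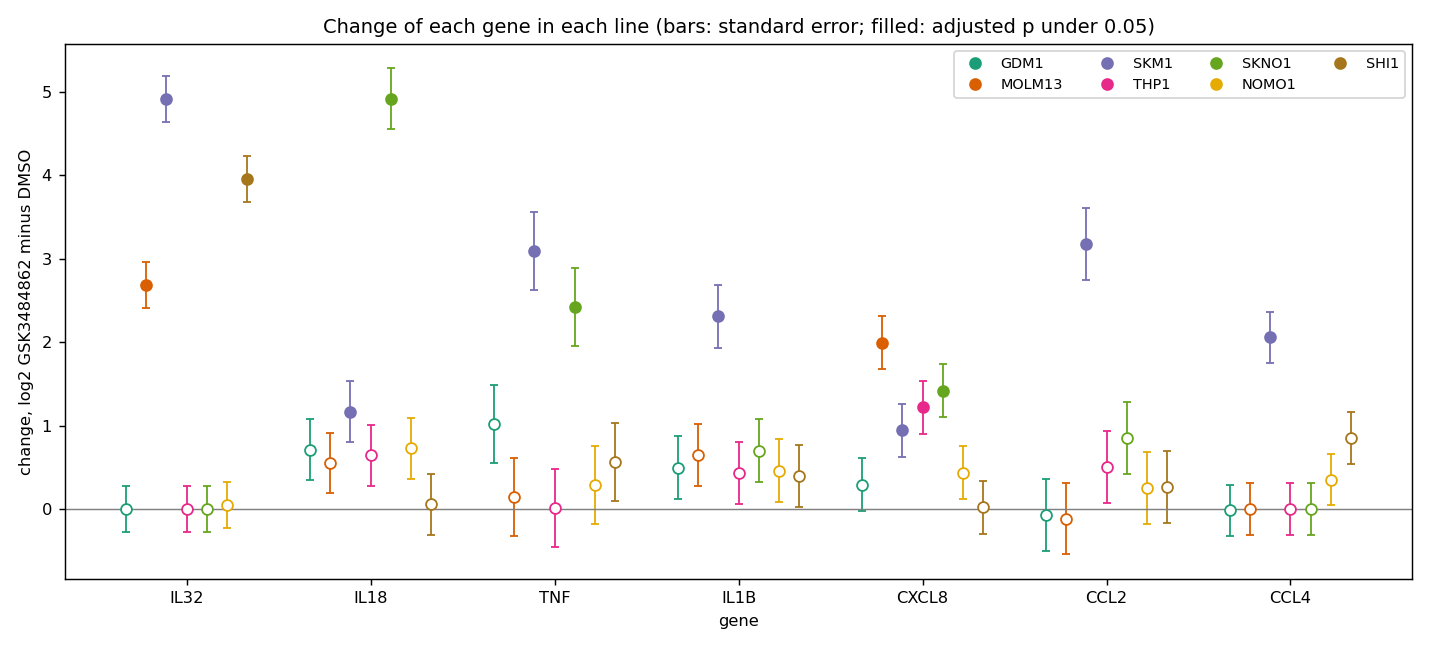
Change of each of the 7 genes in each line (vertical axis, log2 GSK3484862 minus DMSO, with standard error bars), with filled points for limma adjusted p under 0.05. The 7 SKM1 points are all filled, the largest changes are IL18 in SKNO1 (4.92) and IL32 in SKM1 (4.91), and no point below 0 is filled.

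The duplicates of treated SKM1 differed by over 1 for TNF, IL1B, CCL2 and CCL4. Replicate 1 exceeded replicate 2 by 1.84 for TNF, 1.57 for IL1B, 1.53 for CCL2 and 1.44 for CCL4, while CXCL8 differed by 0.34, IL32 by -0.17 and IL18 by -0.53. Of all genes, 3.68% differed by over 1 between these arrays. Under DMSO, SKM1 replicate 1 exceeded replicate 2 by 1.02 for IL1B and by 1.00 for CCL2, and CCL4 differed by -0.85. In SKNO1 replicate 2 was the higher one, by 1.50 for IL18, 1.17 for TNF and 1.33 for CCL2 under DMSO and by 1.18 for TNF under treatment.

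Leaving out treated SKM1 replicate 1, the higher array, kept the calls of TNF, IL1B, CCL2 and CCL4 in SKM1, but not that of CXCL8. TNF then rose by 2.18 (limma adjusted p = 0.00175), IL1B by 1.53 (0.00302), CCL2 by 2.41 (0.000727) and CCL4 by 1.34 (0.000509), and the remaining treated array was assumed to vary like the other groups. With all arrays the rises were 3.10 for TNF, 2.31 for IL1B, 3.18 for CCL2 and 2.06 for CCL4, so each was smaller without that array. What set the duplicates apart was not tested.

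**Figure D3:**
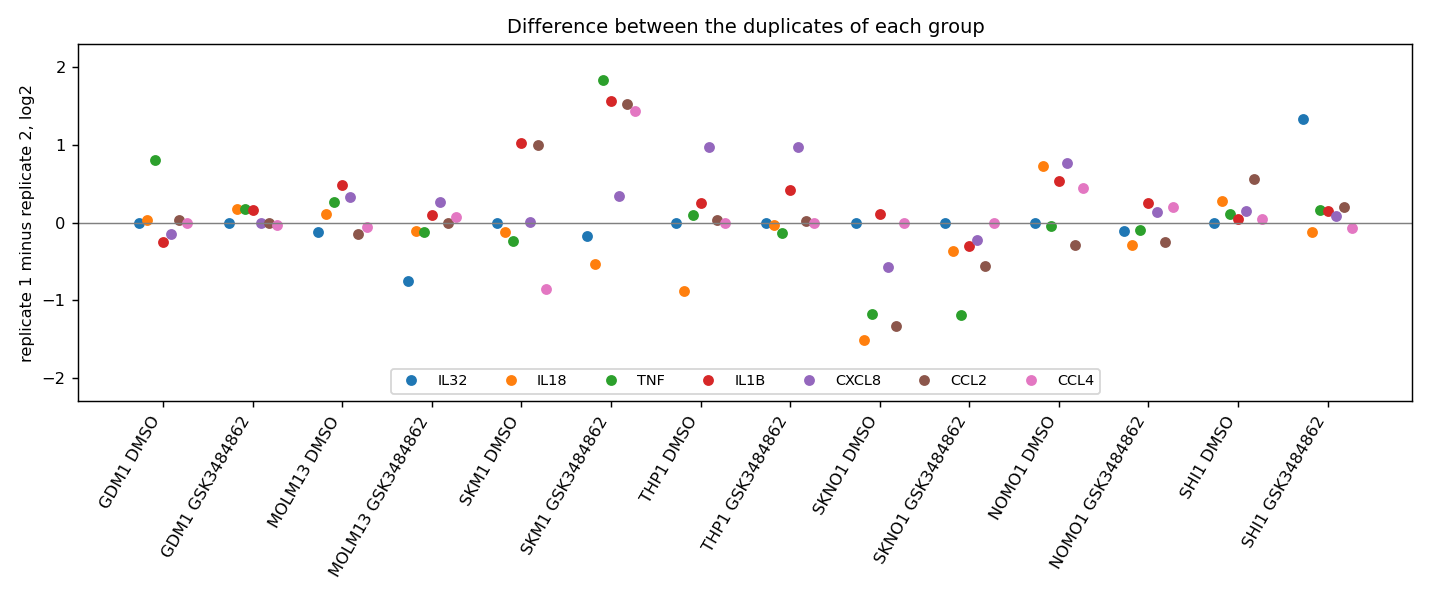
Replicate 1 minus replicate 2 (vertical axis, log2) for each of the 7 genes in each of the 14 groups. In treated SKM1 the points of TNF, IL1B, CCL2 and CCL4 lie between 1.44 and 1.84, and in DMSO-treated SKNO1 the points of IL18, TNF and CCL2 lie below -1.

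Averages over the lines depended on which lines were in them. SKM1 was the line whose removal lowered IL32, TNF, IL1B, CCL2 and CCL4 most. SKNO1 was that line for IL18 and MOLM13 for CXCL8, whose average was 0.72 without it. When the 7 within-line changes were tested against 0, with their own spread as the error, 0 of the 7 averages were called by limma. The adjusted p-values were then 0.0518 for CXCL8, 0.0671 for IL1B, 0.113 for TNF, 0.152 for IL32, 0.157 for IL18, 0.237 for CCL2 and 0.243 for CCL4, with 5 of the 7 genes at an unadjusted p under 0.05 (all but CCL2 and CCL4). In that test 2.54% of all genes were called up.

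**Figure D4:**
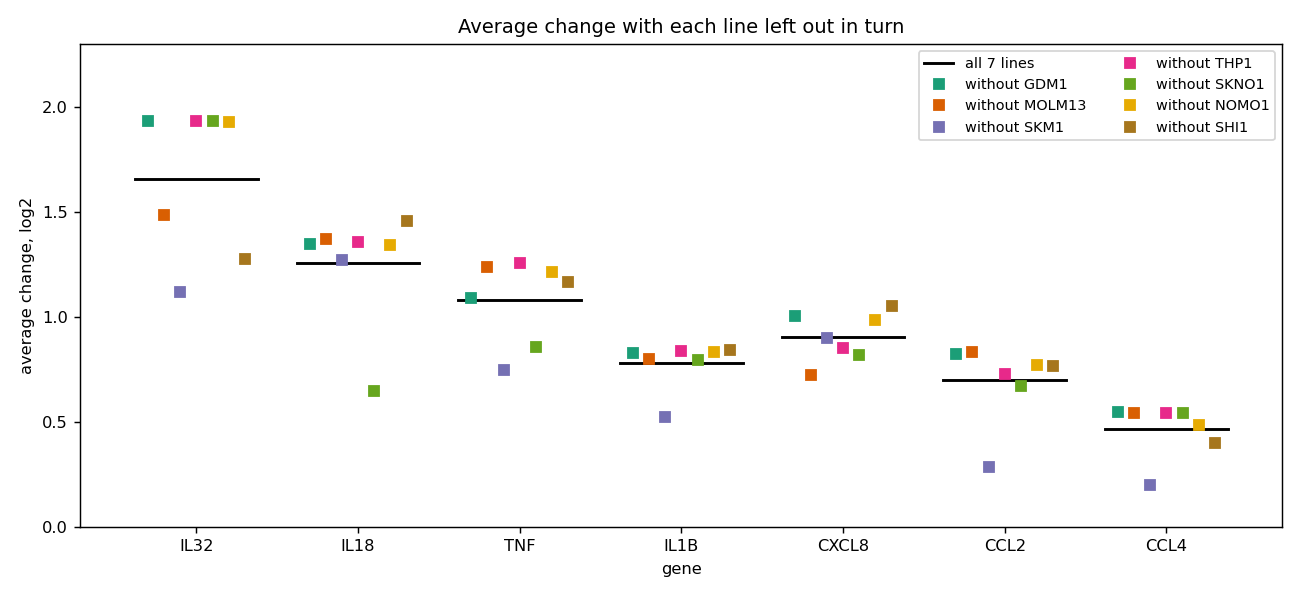
Average change of each of the 7 genes (vertical axis, log2) over all 7 lines (black bars) and with each line left out in turn (squares). CCL2 drops from 0.70 to 0.28 and CCL4 from 0.47 to 0.20 without SKM1, and IL18 drops from 1.26 to 0.64 without SKNO1.

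Across the lines some of the genes moved alike. Over the 7 within-line changes, Pearson's r was 0.95 for IL1B with CCL2, 0.87 for CCL2 with CCL4 and 0.86 for IL1B with CCL4, all from the same arrays and with SKM1 as the largest change of each. IL18 with IL32 gave -0.33. Over the 7 DMSO means, CCL2 with CCL4 gave 0.98, since both were high in NOMO1 and SHI1 and low in MOLM13, GDM1 and THP1. These values describe 7 points and carry no test.

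Other genes had patterns close to these. Over the 14 group means, among 10134 genes spanning at least 1, the closest were PRG3 for IL32 (r = 0.94), HIBADH for IL18 (0.89), LENG1 for TNF (0.93), PGM1 for CXCL8 (0.97), GNAI2 for IL1B (0.96), EMP1 for CCL2 (0.97) and ADGRE1 for CCL4 (0.98). The next ones were VCX2 and HSD11B1L for IL32, LCP2 and PRKCB for IL18, ELOVL3 and KRT18 for TNF, and LYRM1 and IL4R for CXCL8. For IL1B they were TMEM156 and RIN3, for CCL2 they were CCL4 itself and CR1, and for CCL4 they were TP53INP2 and SLC47A1. Over the 7 changes, among 3106 genes, the closest were KIF3C, ULK2 and CD74 for IL32, MAP3K13 and NT5DC1 for IL18 (1 gene of its 3 is not reported here), and JAML, MYEF2 and MS4A7 for TNF. They were ME3, MAP3K2-DT and ADCY9 for CXCL8, FAM114A1, MMP9 and FCMR for IL1B, DLGAP1-AS3, LTB4R and CRACDL for CCL2, and PPP1R1B, HOXB2 and LAX1 for CCL4, with r from 0.953 to 0.994. These values describe 14 or 7 points from the same arrays, picked as the highest among all genes compared, and carry no test.

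Other cytokines and chemokines were measured for 27 of 55 listed genes, of which 10 rose and 4 fell on average, with a median change of 0.18. The 4 with the largest called changes were PPBP, a platelet chemokine (0.98 ± 0.07, with called rises of 5.43 in GDM1 and 1.29 in SHI1), TNFSF13 (0.65 ± 0.09), CCL20 (0.63 ± 0.13) and IL16 (0.62 ± 0.06). Their limma adjusted p-values were 1.48e-08, 1.26e-05, 0.000606 and 4.93e-07. The share of this list called up was 37%, next to 23.2% of all genes. The rise of PPBP in GDM1 was the largest of the wider list in any line.

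Receptors, decoys and antagonists of these cytokines were measured for 13 of 18 listed genes. On average 8 rose and 1 fell, with a median of 0.19, next to 23.2% of all genes called up and 28.6% called down. The 13 and the 8 include PRTN3 (0.15), which is not a receptor, decoy or antagonist and is counted again among the processing genes below. IL1RN, CD14 and KLF4 also stand in more than 1 list. IL18BP, the secreted decoy of IL18, rose by 0.69 ± 0.06 (limma adjusted p = 2.26e-07), with calls in 5 lines and -0.15 in NOMO1. The IL18 receptor chain IL18RAP rose by 0.44 ± 0.07, with 2.56 in SKM1. The other chain, IL18R1, was not called on average (-0.15 ± 0.07, adjusted p = 0.0963) and ran from -1.80 in GDM1 to 2.35 in SKM1. CCR2, the receptor of CCL2, fell by 0.98 on average (adjusted p = 1.23e-05), with called falls in 3 lines. The CCR2 changes there were -3.58 in SKM1, the line in which CCL2 rose, -2.16 in GDM1 and -1.23 in NOMO1. CCL2 had no call in GDM1 (-0.07) or NOMO1 (0.26). CCR1, a receptor of CCL3, rose by 0.40 ± 0.12.

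The TNF receptor genes rose slightly on average, TNFRSF1B by 0.25 ± 0.09 (limma adjusted p = 0.0305) and TNFRSF1A by 0.08 ± 0.03 (0.041). The decoy receptor IL1R2 rose by 0.18 ± 0.07 (0.034). The antagonist gene IL1RN gave 0.21 ± 0.13 and was not called (0.166).

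Genes that process these cytokines or form inflammasomes were measured for 17 of 21, with 7 up (41.2%) and 0 down and a median of 0.13. Of all genes, 23.2% were called up and 28.6% down. The sensor NLRC4 rose by 0.65 ± 0.11, CASP1, which cuts the IL18 and IL1B precursors, by 0.34 ± 0.07, CARD8 by 0.19 ± 0.04, and the sensor NLRP3 by 0.19 ± 0.07 (limma adjusted p = 0.000125, 0.000982, 0.000484 and 0.0435). PYCARD, the adaptor between sensor and caspase, rose by 0.13 ± 0.04 (0.0101). ADAM17, which sheds TNF from the cell surface, gave 0.08 ± 0.05 and was not called (0.162).

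Of 29 measured NF-kappaB subunits, inhibitors and targets (33 listed), 17 rose (58.6%) and 3 fell (10.3%) on average, with a median of 0.15. The shares over all genes were 23.2% and 28.6%. The targets IER3 (1.03 ± 0.16), PTX3 (0.88 ± 0.17) and CD40 (0.67 ± 0.22) and the kinase gene IRAK2 (0.67 ± 0.10) changed most. The subunit genes NFKB1 (-0.08 ± 0.04, limma adjusted p = 0.0976) and RELA (-0.0012 ± 0.03, 0.976) were not called. The inhibitors NFKBIA and TNFAIP3, themselves NF-kappaB targets, rose by 0.23 ± 0.04 and 0.20 ± 0.04 (6.68e-05 and 0.000455).

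Immediate early and AP-1 genes (15 of 19 measured) gave 4 rises and 1 fall, with a median of 0.08. The share that rose, 26.7%, was near the 23.2% of all genes. FOS rose by 0.58 ± 0.15, with 2.50 in SKM1, JUNB by 0.22 ± 0.04 and KLF6 by 0.17 ± 0.05, and the phosphatase gene DUSP2 fell by 0.41. Of 11 measured genes of cytokine mRNA decay (12 listed), 1 rose (9.09%) and 5 fell (45.5%), next to 23.2% and 28.6% of all genes, with a median of 0.04. The one that rose was ZFP36, which promotes decay of TNF mRNA (0.35 ± 0.06, limma adjusted p = 5.21e-05). KHSRP fell by 0.21, ELAVL1 by 0.16 and CNOT7 by 0.14.

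Genes of endotoxin sensing and toll-like receptor signalling (18 of 23 measured) gave 12 rises (66.7%) and 1 fall (5.56%), with a median of 0.33. Among all genes the shares were 23.2% and 28.6%. TLR1 rose by 1.93 ± 0.26, the endotoxin co-receptor CD14 by 1.34 ± 0.16, LY96 by 0.94 ± 0.15 and IRF7 by 0.93 ± 0.08. TLR4 rose by 0.37 ± 0.09 and TLR2 by 0.24 ± 0.06.

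Markers of monocytes and macrophages rose as well. Of 17 measured (25 listed), 13 rose (76.5%) and 0 fell on average, next to 23.2% and 28.6% of all genes. The median of 0.78 was the largest of the lists. S100A8 (2.05 ± 0.15), S100A9 (1.94 ± 0.19), CYBB (1.73 ± 0.16) and MNDA (1.54 ± 0.10) rose most. S100A8 was called only in GDM1 (8.24) and MOLM13 (5.75), with -0.42 to 0.35 in the other 5 lines, and S100A9 only in the same lines (4.27 and 7.30). The mean level of the 17 markers went from 8.97 to 10.34 in SKM1 with 8 called up, and from 6.02 to 7.76 in MOLM13 with 7 called up. In GDM1 it went from 4.66 to 5.89 with 4 called up. The median change in GDM1 was only 0.14, next to rises of 8.24 for S100A8, 5.51 for MNDA and 4.27 for S100A9. The mean level went from 8.31 to 8.98 in THP1, from 4.69 to 5.18 in SKNO1, from 8.45 to 8.87 in SHI1 and from 10.60 to 10.92 in NOMO1. In these lines 3, 2, 1 and 2 markers were called up. The shares of all genes called up were 14.1% in SKM1, 13.7% in MOLM13, 13.3% in GDM1, 5.4% in THP1, 2.96% in SKNO1, 2.52% in SHI1 and 4.21% in NOMO1. CD14 was at the floor in DMSO-treated GDM1, MOLM13, SKM1 and SKNO1, and in treated GDM1 and SKNO1 as well, and it reached 6.49 in treated SKM1. The part of these markers in the rise of the cytokine genes was not tested.

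General myeloid and leukocyte markers (13 of 14 measured) gave 12 rises (92.3%) and 0 falls, with a median of 0.32. For this and the next lists, the shares over all genes were 23.2% called up and 28.6% called down. The largest rises were those of ANPEP (1.99 ± 0.10), TYROBP (1.15 ± 0.09), FCER1G (1.06 ± 0.12) and MPO (0.86 ± 0.10). MPO was called only in GDM1 (2.95) and MOLM13 (2.74), with -0.14 to 0.31 in the other lines. ANPEP and FCER1G rose most in MOLM13, by 6.45 and 3.72. Lymphocyte markers were measured for 7 of 21, with 4 up (57.1%) and 1 down (14.3%) and a median of 0.27. CD3D rose by 0.75 ± 0.13, CD4 by 0.70 ± 0.16 and PRF1 by 0.40 ± 0.05, and EBF1, at the floor in 10 of 14 groups, fell by 0.43. The mean level of the 7 ran from 5.55 in DMSO-treated SKM1 to 8.85 in DMSO-treated GDM1. Stromal, endothelial and epithelial markers were measured for only 4 of 14, with 2 up (50%) and 0 down and a median of 0.29. The 2 were PECAM1 (0.71 ± 0.07) and KRT8 (0.38 ± 0.06). Of 11 measured reference genes (14 listed), 1 rose (9.09%) and 4 fell (36.4%), with a median of -0.003. B2M rose by 0.10 ± 0.02, and among those that fell were HPRT1 by 0.29, TBP by 0.27 and SDHA by 0.14.

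**Figure D5:**
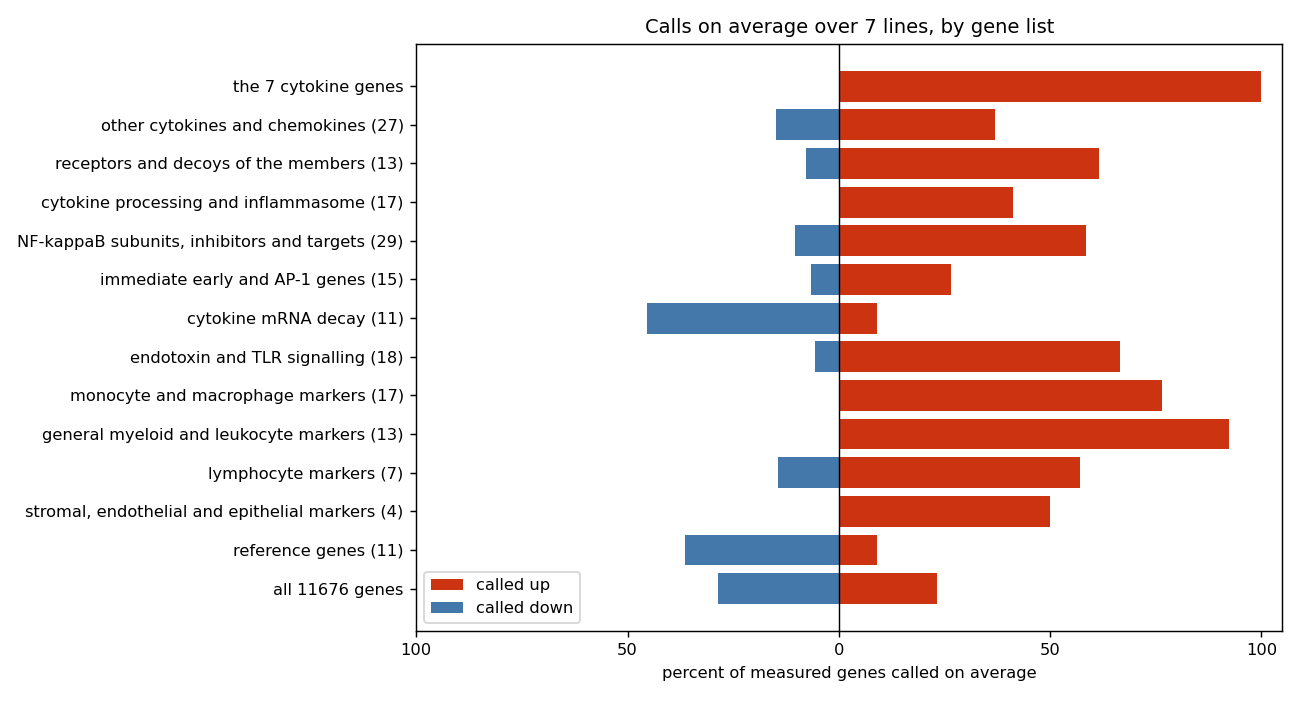
Percent of the measured genes of each list (vertical axis, number measured in brackets) that limma called up (red, to the right) or down (blue, to the left) on average over the 7 lines. Of the 7 cytokine genes all were called up, of all 11676 genes 23.2% up and 28.6% down. The 7 genes and the lists were chosen with earlier results of these data known.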

How the data were processed

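RNA of 7 AML cell lines under DMSO or GSK3484862 was measured on 28 arrays. The authors deposited 1 table of log2 signals for 27306 probe sets, used here as they stood. How they were background-corrected, summarised and scaled is not given in these sources, and limma was used per the submitters' processing notes, with no role or version stated. Line, treatment and replicate came from the sample labels. Probe sets were named from the platform annotation (22580 with 1 symbol, 1098 with several, 3628 with none). The brightest probe set by mean signal stood for a gene (11676 genes). Values within 0.1 of 2.13 were counted as at the floor. The number of arrays limits the precision.

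Tests used lmFit and eBayes of limma 3.58.1 under R 4.3.3 (14 groups, 14 residual and 2.28 prior degrees of freedom, two-sided, Benjamini-Hochberg adjustment), with contrasts within lines, their average, and an F-test between lines. The average p-values concern these 7 lines. The code was tested on simulated data. Alternatives were other normalizations, filters, probe set choices, moderation, array weights, replicate blocks, lines as units, and arrays or lines left out. The fit over all probe sets, which served the shared CCL3 probe set, and its repeats without a line or a SKM1 array were chosen after seeing the data. The genes named were all 8 members, the 4 called genes with the largest average change of each list, a set of receptors and regulators, DNMT1, and the 3 genes most like each member. The members and lists were chosen with earlier results of these data known. RefSeq promoter windows (GRCh38.p14) were matched by symbol.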

Additional observations from a re-analysis of the deposited data

Results flagged for a closer look

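The effect of GSK3484862 differed between the 7 lines, by a limma F-test adjusted over all genes, for 6 of the 7 genes. The adjusted p-values were 5.16e-08 for IL32, 2.74e-05 for IL18, 0.00464 for CCL2, 0.00592 for TNF, 0.00766 for CCL4 and 0.0194 for CXCL8. The same test called 37.5% of all genes. IL32 rose by 4.91 in SKM1 and stayed at the floor in GDM1, THP1 and SKNO1. IL18 rose by 4.92 in SKNO1 and changed by 0.06 in SHI1. TNF rose by 3.10 in SKM1 and 2.42 in SKNO1 and changed by 0.02 in THP1, and CCL2 and CCL4 were called in SKM1 alone.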

How the results depend on the processing

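Every average kept its direction under the alternatives that gave it a value. Quantile normalization, median centring, the other probe set choices, trend and robust moderation, array weights, the replicate block, a threshold of 0.01 and the removal of any 1 of 28 arrays changed no call of an average. Over single arrays left out the averages ran from 1.56 to 1.75 for IL32, 1.15 to 1.36 for IL18, 0.95 to 1.21 for TNF, 0.84 to 0.97 for CXCL8, 0.67 to 0.89 for IL1B, 0.59 to 0.81 for CCL2 and 0.36 to 0.57 for CCL4. The filter on low signal (group mean above 8.43) gave no value for IL32 and CCL4, and leaving out probe sets prone to cross-hybridise left IL18, IL1B and CCL4.

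With lines as units no average was called: IL32 1.66, IL18 1.26, TNF 1.08, CXCL8 0.90, IL1B 0.78, CCL2 0.70 and CCL4 0.47, and 296 genes were called up and 529 down against 2704 and 3335. With 1 replicate number kept and line as a block, no average was called either, and the values without replicate 1 and without replicate 2 were 1.63 and 1.69 for IL32, 1.25 and 1.26 for IL18, 1.02 and 1.14 for TNF, 0.90 and 0.91 for CXCL8, 0.77 and 0.79 for IL1B, 0.62 and 0.77 for CCL2, and 0.32 and 0.61 for CCL4. Both take the spread between lines as the error. The CCL2 average was 0.28 without SKM1.

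The F-test between lines was lost for CCL2 without SKM1 (adjusted p = 0.367), IL18 without SKNO1 (0.246), and CXCL8 without GDM1 (0.0543), MOLM13 (0.127) or SHI1 (0.0747). It was gained for IL1B with trend and robust moderation (0.0364).

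The replicate numbers were not taken to pair the arrays, since deviations of same-numbered arrays correlated above 0.1 in only 3 of 7 lines, from -0.097 in GDM1 to 0.391 in SKNO1. The replicate block over all arrays changed no call. As a replicate block within line it gave IL1B an F-test adjusted p of 0.00171 and CCL4 one of 0.0656, and added IL1B in GDM1, MOLM13 and SKNO1 and CCL2 in SKNO1 (adjusted p from 0.0154 to 0.0414).

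Of changes in single lines, quantile normalization turned TNF in THP1 to -0.055 and CCL4 in MOLM13 to -0.0064, and median centring turned CXCL8 in SHI1 to -0.029. Leaving out an array gave ranges across 0 for CCL2 in SHI1 (-0.010 to 0.55), CCL4 in MOLM13 (-0.029 to 0.040), CXCL8 in SHI1 (-0.055 to 0.099), IL18 in SHI1 (-0.080 to 0.20) and TNF in THP1 (-0.051 to 0.087). With each line fitted on its own 4 arrays, 11 of the 14 calls in lines were lost, all but IL32 in MOLM13 and SKM1 and CXCL8 in MOLM13, and IL18 was gained in GDM1 (adjusted p = 0.0308) and MOLM13 (0.0379). Array weights lost IL18 and CXCL8 in SKM1 (0.231 and 0.293) and gained CCL4 in SHI1 (0.00355). The causes were not tested.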
